A study of Mus musculus with 6 samples.

Results

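In HL-1 cells treated with a gapmer against Malat1, 32 protein-coding genes that were near silent in the control cells were read at low but clear levels. They were chosen on the deposited values themselves. A gene was taken if its biotype was protein-coding, if its normalized count was at most 6 in each of the 3 LNA Control libraries and if it was at least 12 in each of the 3 LNA Malat1 libraries, and names beginning with Ces2, Olfr, Vmn, Kcn, Col or Hist were left out. The rule kept 32 of 14262 protein-coding genes in a table of 21269 genes. A normalized count is the number of reads on a gene divided by a factor for the library, and here 1 read was worth between 0.864 and 1.09 normalized counts. All values of the 32 genes therefore rest on few reads, and their difference between the groups is a description of what was selected and not a test. Each fold change was computed from log2(normalized count + 1), so it understates the change of such low genes.

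The 32 genes include enzymes, phosphatases, ion channels and transporters, receptors and adaptors of immune cells, zinc finger transcription factors, germ line proteins and proteins of the retina and the inner ear. A differentiated cell keeps many such genes silent by DNA methylation, Polycomb complexes, histone H3 lysine 9 methylation and sequence-specific repressors. CpG-rich promoters are usually free of DNA methylation and are often repressed by Polycomb, whereas CpG-poor promoters tend to be methylated where the gene is silent. Malat1 is a long noncoding RNA retained in the nucleus, where it is found near nuclear speckles and actively transcribed genes.

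HL-1 is a line of mouse atrial cardiomyocytes, grown in Claycomb medium with norepinephrine and serum. Cells of both groups were plated, received 50 nM of a gapmer 24 hours later, LNA Control or LNA Malat1, and were collected 48 hours after it. Such an oligonucleotide has locked ends and a DNA core, and RNase H cuts the RNA that pairs with it. There were 3 libraries of total RNA per group, and no source says that they came from separate cultures, so that p-values measure a spread that may be technical. The line is a single cell line and was compared with 1 gapmer of each kind.

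The recovered depth was between 4512255 and 5592272 reads on genes per library. Malat1 had normalized counts of 5051, 5197 and 4369 in the controls and 2833, 2792 and 2732 after silencing of Malat1, so that 57.2% of its level remained. Of the cardiomyocyte markers, Tnnt2, Actc1, Nkx2-5 and Gata4 were read in every library, whereas Myh6 and Myh7 lay between 0 and 7. Across genes, LNA Malat1 replicates 1 and 3 differed by less than the sampling noise, with 0.95 as the chi-square per gene, and were counted as 1 sample in each mean ± SD, which leaves n = 2 in LNA Malat1. Replicates 1 and 2 were also close to it (1.01 per gene, chi-square p = 0.15), whereas replicates 2 and 3 differed by more (1.16 per gene). The LNA Control libraries differed by more, with a chi-square per gene between 1.77 and 4.18.

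Promoter windows are shown first for 4 of the genes, because these windows differ in CpG content. Of the 32 genes, 23 had a window of 250 bases before to 50 bases after the start in RefSeq (GRCm38.p6). Zkscan7, Psd2, Plekhg6, Scd1, Svop, Iqca1l, Prr15l, Piwil2 and Lamc3 had none there. The 250 bases before the start are printed 5′ to 3′ for a pair of CpG-rich promoters, those of Ppp2r2c (chr5:36868260-36868509, plus strand) and Stag3 (chr5:138280259-138280508, plus strand), and for a pair of CpG-poor promoters, those of Prss27 (chr17:24037993-24038242, plus strand) and Otog (chr7:46240737-46240986, plus strand). Capitals mark each CpG, the site of DNA methylation, of which these stretches hold 23, 26, 3 and 0.
Ppp2r2c: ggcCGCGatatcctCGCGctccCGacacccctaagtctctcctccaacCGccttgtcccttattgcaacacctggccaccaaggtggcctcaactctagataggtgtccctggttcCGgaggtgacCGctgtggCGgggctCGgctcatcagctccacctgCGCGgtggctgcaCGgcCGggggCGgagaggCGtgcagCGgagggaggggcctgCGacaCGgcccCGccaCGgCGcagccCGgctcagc
Stag3: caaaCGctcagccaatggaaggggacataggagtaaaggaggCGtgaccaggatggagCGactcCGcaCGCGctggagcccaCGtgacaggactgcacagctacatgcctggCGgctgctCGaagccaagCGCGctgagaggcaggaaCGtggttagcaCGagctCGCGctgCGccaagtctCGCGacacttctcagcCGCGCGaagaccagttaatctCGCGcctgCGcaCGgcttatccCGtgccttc
Prss27: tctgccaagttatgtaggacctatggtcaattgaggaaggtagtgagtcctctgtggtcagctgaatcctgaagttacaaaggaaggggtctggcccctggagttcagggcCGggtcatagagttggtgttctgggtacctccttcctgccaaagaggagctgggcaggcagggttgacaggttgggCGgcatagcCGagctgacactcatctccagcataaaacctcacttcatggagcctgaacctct
Otog: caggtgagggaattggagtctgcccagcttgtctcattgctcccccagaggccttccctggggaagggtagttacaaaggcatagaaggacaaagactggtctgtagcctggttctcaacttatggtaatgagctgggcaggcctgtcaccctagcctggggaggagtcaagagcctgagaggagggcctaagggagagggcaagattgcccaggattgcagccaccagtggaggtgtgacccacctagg

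Over the whole windows of 300 bases, the ratio of observed to expected CpG was 0.92 in Ppp2r2c, 1.06 in Stag3, 0.19 in Prss27 and 0 in Otog. It was at least 0.6 in 7 of the 23 genes, namely Stag3, AI661453, Ppp2r2c, Lpxn, 2210016F16Rik, Shd and Plagl1, which is 30.4% (95% Wilson interval 15.6 to 50.9%). The share was 26.1% in 1491 other protein-coding genes whose LNA Control libraries were all at most 6, and 67.1% in all 11233 protein-coding genes with a window. Unlike the members, the other near-silent genes were taken here and below with no name left out. The interval holds the share of the other near-silent genes and lies below that of all protein-coding genes. The median ratio was 0.27 in the 23 genes, 0.34 in the other near-silent genes and 0.74 in all protein-coding genes. Both CpG-rich and CpG-poor promoters were thus among them. For Asic1, Plagl1 and Dusp13 the RefSeq start lay 21.9, 30.3 and 2.56 kb from the start of the gene in the table, so their windows may belong to an internal or alternative start. In the other 20 it lay within 1 kb, with 0.269 kb in Stag3, 0.347 kb in Afap1l2 and 0.221 kb in Tmc8. The stretch printed for Stag3 therefore lies before the RefSeq start but inside the gene as the table bounds it.

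**Figure D1:**
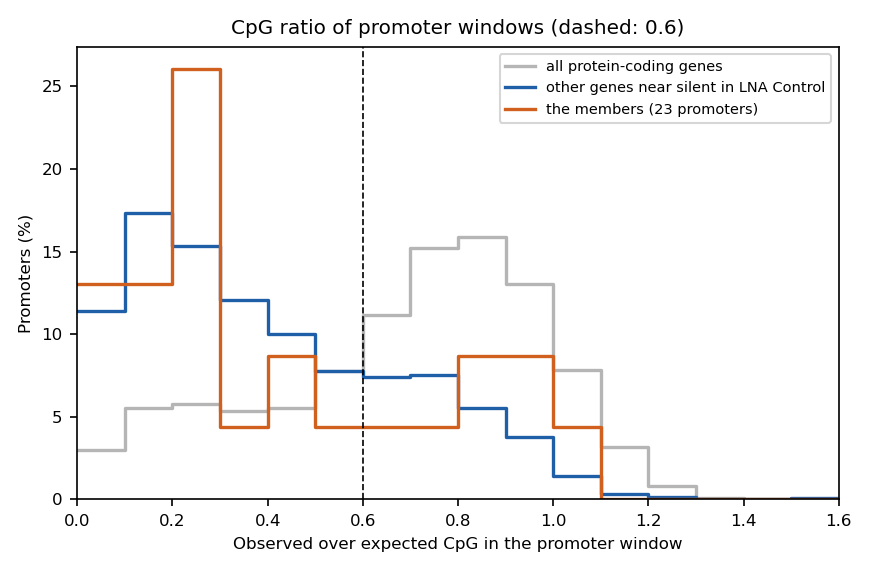
Share of promoters (percent, vertical axis) by the observed over expected CpG ratio of the window of 300 bases (horizontal axis, bins of 0.1), for the 23 members with a window, 1491 other protein-coding genes near silent in LNA Control and 11233 protein-coding genes. The members lie on both sides of the dashed line at 0.6, with 12 of 23 below 0.3 and 7 at or above 0.6.

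Short motifs were counted in the same windows on both strands. TATAAA, the TATA box, occurred in 0 of the 23 windows, against 12.9% of the other near-silent genes and 7.57% of all protein-coding genes. By the approximation of 3 over the number of windows, a count of 0 allows a share of up to about 13%. This limit is rough and too close to 12.9% to separate the members from the other near-silent genes. CCAAT occurred in 10 windows (43.5% against 34.9 and 38.9%), CACGTG in 3 (13% against 6.77 and 9.74%) and GGGCGG, the core of SP1 sites, in 6 (26.1% against 36.9 and 61.8%). TCCCGC, part of E2F sites, occurred in 6 (26.1% against 18.2 and 34.4%), which were those of Stag3, Lpxn, 2210016F16Rik, Plagl1, Shd and Tmc8. TGANTCA occurred in 2 windows (8.70% against 9.39 and 5.23%) and AGATAA in 2 (8.70% against 10.8 and 6.62%), and TCACNCCAC was in 0 of 23 (against 2.01 and 1.19%). Matches to GGGCGG and TCCCGC can share bases. These shares rest on 23 windows, and none was tested.

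Together the 32 genes summed to 90, 90 and 112 normalized counts in LNA Control replicates 1 to 3 and to 739, 718 and 686 in LNA Malat1 replicates 1 to 3. The 2 groups did not overlap, by the choice of the genes, and the ratio of the sums was 7.34. The median of the 32 means was 3.0 in LNA Control and 19.2 in LNA Malat1, with a range of 12.3 to 50.7 in LNA Malat1. In LNA Malat1, 7 genes had a mean of at least 30, 8 a mean from 20 to below 30 and 17 a lower mean. In LNA Control, 5 genes were at 0 in at least 1 library (Afap1l2, Iqca1l, Lamc3, Sec14l3 and Otog) and 0 genes were at 0 in all 3. All 32 passed the filter of a mean of at least 5, which the limits ensure, and all 32 were called higher by limma (adjusted p of 0.05 or less, fold change 1.5 or more), beside 8.0% of all 15650 genes tested. Over all genes 73.3% of the calls were higher, and 52.7% were after quantile normalization. Nothing is read from the count of members, since the rule used the same contrast. The median log2 fold change of the 32 genes was 2.60 (1.54 to 4.30), beside 0.02 over all genes tested. Annotated roles were available for 21 of the 32 genes, and the shares lay near those of the other near-silent genes for membrane proteins (52.4 against 49.4%), nervous system (19.0 against 18.8%) and immune roles (14.3 against 14%). Sensory perception was annotated in 3 of the 21 (14.3 against 5.76%) and reproduction in 3 (14.3 against 9.86%), and no share was tested.

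**Figure D2:**
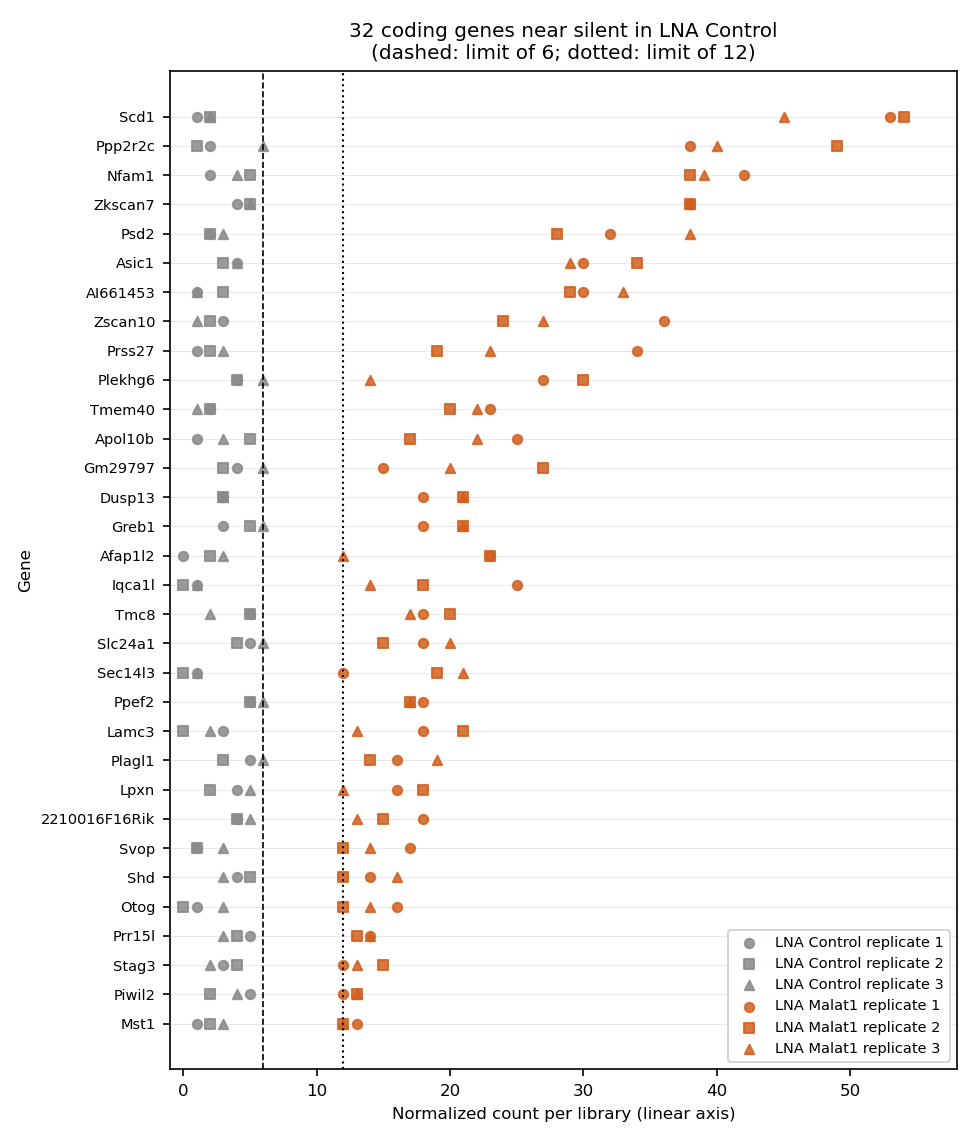
Normalized count (horizontal axis, linear) of each of the 32 genes (vertical axis, ordered by the LNA Malat1 mean) in each library, grey for LNA Control and orange for LNA Malat1, with circles, squares and triangles for replicates 1, 2 and 3. All grey points lie at or below the dashed limit of 6 and all orange points at or above the dotted limit of 12, by the choice of the genes, and the orange points reach 54 in Scd1.

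The highest gene was a metabolic enzyme. Scd1 (mm10, chromosome 19, 44394455 to 44407879, minus strand), a stearoyl-CoA desaturase of the endoplasmic reticulum that makes monounsaturated fatty acids, had normalized counts of 1, 2 and 2 in the controls and 53, 54 and 45 after silencing of Malat1. The 2 groups were far apart, at 1.67 ± 0.58 (SD, n = 3) and 51.5 ± 3.5 (SD, n = 2). The ratio of the sums was 30.4, the highest of the 32, with a 95% interval of 12.7 to 95 that treats the sums as counts and covers counting error only. Its log2 fold change was 4.30 (SE 0.30). Of the other desaturase genes, Scd2 and Scd4 were not called, and Scd3 was below the filter and not tested. Scd2, the main desaturase gene of this line, had 3343, 3215 and 2740 in the controls and 2653, 2757 and 2604 after silencing of Malat1 (log2 fold change -0.21, limma adjusted p = 0.052). Scd4, whose start is 74.8 kb from that of Scd1, lay at 47, 45 and 41 and at 40, 41 and 49, and Scd3 lay between 1 and 6. Per kilobase of exon, Scd1 reached 10.5 in LNA Malat1, beside 567 for Scd2 in LNA Control.

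Of 23 tested genes in a list of this pathway, 1 was called higher (Nr1h3, the liver X receptor alpha, with 15, 27 and 20 in the controls and 42, 34 and 30 after silencing of Malat1) and 0 were called lower, and the median log2 fold change was -0.11. With no fold minimum, 7 genes had a lower and 1 a higher level by adjusted p alone (0.05 or less). Srebf1, the regulator of lipid synthesis, had 971, 937 and 894 in the controls and 855, 820 and 921 after silencing of Malat1. Fasn, the fatty acid synthase, had 2469, 2183 and 1963 and 2216, 2090 and 2190, and the groups of both genes overlapped. Fads2, the delta-6 desaturase, changed by -0.42 as log2 fold change (adjusted p = 1.1e-04, limma) and Elovl5, an elongase, by -0.50 (adjusted p = 4.7e-05, limma). Nr1h3 was called in 7 of 14 alternatives.

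Phosphatases and other enzymes followed. Ppp2r2c (chromosome 5, 36868513 to 36955078, plus strand), a regulatory subunit of protein phosphatase 2A known from brain, had 2, 1 and 6 in the controls and 38, 49 and 40 after silencing of Malat1. LNA Control replicate 3 was the highest of the controls and still far below the lowest LNA Malat1 library. Its relatives Ppp2r2a (702, 699 and 673 against 777, 750 and 723) and Ppp2r2d (451, 485 and 449 against 413, 422 and 425) were read at many times its level, and neither was called. Dusp13 (chromosome 14), a dual-specificity phosphatase of testis and skeletal muscle, had 3, 3 and 3 in the controls and 18, 21 and 21 after silencing of Malat1. It overlaps Samd8 on the other strand, which had 1159, 1127 and 1060 and then 967, 1108 and 1063. Ppef2 (chromosome 5), a calmodulin-binding phosphatase of photoreceptors, had 5, 5 and 6 in the controls and 18, 17 and 17 after silencing of Malat1, the lowest ratio of the 32 at 3.25. Prss27 (chromosome 17, 24038144 to 24045954), a serine protease of epithelia, had 1, 2 and 3 and then 34, 19 and 23, and LNA Malat1 replicate 1 stood above the other two. Among its relatives, 3 of 7 tested were called higher, of which Prss23 (45, 40 and 46 against 116, 112 and 102) had a log2 fold change of 1.31.

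Receptors, channels and transporters formed another group. Nfam1 (chromosome 15, 82992973 to 83033306), a membrane receptor that signals to NFAT in immune cells, had 2, 5 and 4 in the controls and 42, 38 and 39 after silencing of Malat1. The 3 LNA Malat1 libraries lay within 4 normalized counts of each other. Asic1 (chromosome 15), a proton-gated sodium channel of neurons, had 4, 3 and 4 and then 30, 34 and 29. Its relatives Asic3 and Asic4 stayed between 0 and 5 in every library. Slc24a1 (chromosome 9), the sodium, calcium and potassium exchanger of rods, had 5, 4 and 6 and then 18, 15 and 20. Its relative Slc24a4 was called lower, with 27, 25 and 23 against 15, 12 and 19, although 3 of 14 alternatives called it. Tmc8 (chromosome 11), the partner of Tmc6 in the skin protein complex EVER, had 5, 5 and 2 and then 18, 20 and 17, whereas Tmc6, whose start lies 0.122 kb away on the other strand, had 104, 96 and 104 and then 110, 99 and 111. Svop (chromosome 5), a synaptic vesicle transporter homologue, had 1, 1 and 3 and then 17, 12 and 14. Of 14 tested genes of synaptic vesicles and neurotransmission outside the 32, limma and voom called 0, and 6 were higher and 2 lower at an unadjusted p below 0.05. Tmem40 (chromosome 6), a transmembrane protein, had 2, 2 and 1 and then 23, 20 and 22.

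Adaptors, exchange factors and cytoskeletal proteins were also present. Psd2, an exchange factor for the small GTPase ARF6, had 2, 2 and 3 in the controls and 32, 28 and 38 after silencing of Malat1. Plekhg6 (chromosome 6), a guanine nucleotide exchange factor, had 4, 4 and 6 and then 27, 30 and 14, with LNA Malat1 replicate 3 the lowest of its group. Afap1l2 (chromosome 19), an actin filament and kinase adaptor, showed the same order, with 0, 2 and 3 and then 23, 23 and 12. Its relative Afap1 was read at 1092, 967 and 1001 and then 903, 897 and 930. Lpxn (chromosome 19), the leukocyte member of the paxillin family, had 4, 2 and 5 and then 16, 18 and 12, and paxillin itself (Pxn) 368, 328 and 358 and then 303, 328 and 317. Shd (chromosome 17), an SH2 domain adaptor, had 4, 5 and 3 and then 14, 12 and 16. In all, 9 of the 32 genes had a highest LNA Malat1 library at least 1.5 times the lowest.

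Transcription factors and germ line genes came next. Zkscan7 (chromosome 9), a zinc finger protein with KRAB and SCAN domains, had 4, 5 and 5 in LNA Control and 38 in each LNA Malat1 library. A pseudogene that bears the same symbol lies 17.6 kb away, so the assignment of reads between them is uncertain. Zscan10 (chromosome 17, 23600856 to 23611019), a SCAN zinc finger factor of embryonic stem cells, had 3, 2 and 1 and then 36, 24 and 27. Of 8 tested Zscan relatives, 0 were called, and each of these 8 had a higher level per kilobase in LNA Control than Zscan10 reached in LNA Malat1. Plagl1 (chromosome 10), an imprinted zinc finger factor, had 5, 3 and 6 and then 16, 14 and 19. Stag3 (chromosome 5, 138280240 to 138312393), the cohesin subunit of meiosis, had 3, 4 and 2 and then 12, 15 and 13. Its mitotic relatives Stag1 (1059, 1171 and 1269 against 881, 925 and 910) and Stag2 (1554, 1805 and 1960 against 2006, 2103 and 1949) were not called. Piwil2 (chromosome 14), an Argonaute protein of the piRNA pathway, had 5, 2 and 4 and then 12, 13 and 13.

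In a list of meiosis and piRNA genes that left out the members, 18 of 35 were in the table and 11 were tested. Of these, 4 were called higher and 0 lower, with a median log2 fold change of 0.58. The share called higher was 8.0% over all genes tested and 6.0% over protein-coding genes alone. It was 20.5% (257 of 1252) over other protein-coding genes whose mean over the 6 libraries lay in the range of the 32 genes (7.17 to 26.2). Sycp2, a component of the synaptonemal complex, had 24, 20 and 37 in the controls and 96, 75 and 94 after silencing of Malat1, or 1.71 as log2 fold change (adjusted p = 7.6e-05, limma). Meioc, needed for meiotic prophase, had 0, 2 and 2 and then 16, 14 and 9. Tdrd6 had 5, 8 and 11 and then 23, 23 and 20, and Tdrd5 4, 2 and 2 and then 16, 9 and 7, both Tudor proteins of the piRNA pathway. Of the other genes of the list, Dmc1 and Sycp3 lay between 0 and 3 and Rec8 between 0 and 5. Ddx4 lay between 3 and 10 in both groups, Msh4 between 23 and 46 and Gtsf1 between 14 and 35, and none of these 3 was called. The calls of Sycp2, Meioc and Tdrd6 held in all alternatives in which the gene was tested, and Tdrd5 was called in 12 of 13.

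Retinal genes were the list with the most calls. The members Slc24a1 and Ppef2 are photoreceptor proteins, and of 10 tested photoreceptor genes outside the 32, 7 were called higher and 0 lower, with a median log2 fold change of 1.20. Cnga3 (3, 1 and 2 against 11, 18 and 13) and Cngb1 (2, 0 and 2 against 11, 15 and 13), subunits of the cyclic nucleotide-gated channels of cones and rods, missed the limit of 12 by 1. Gnat2, the cone transducin, had 22, 26 and 28 and then 47, 57 and 59, or 1.07 as log2 fold change (adjusted p = 7.3e-04, limma). Pde6a, Gnat1 and Grk1 were also called. The remaining tested genes, Gnb1, Sag and Guca1b, were not called, and 7 genes of the list were below the filter, with Crx at 0, 0 and 0 and then 4, 3 and 3. Of the called genes, Gnat2 had the highest level. Beside this count stand the 20.5% called higher among protein-coding genes in the range of the 32 genes and the 8.0% over all genes tested. Over protein-coding genes alone the share was 6.0%. The count of 7 fell to 4, 5 and 4 without LNA Malat1 replicate 1, 2 or 3, and to 4 when replicates 1 and 3 of LNA Malat1 formed 1 sample. The list was written after the members were known.

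**Figure D3:**
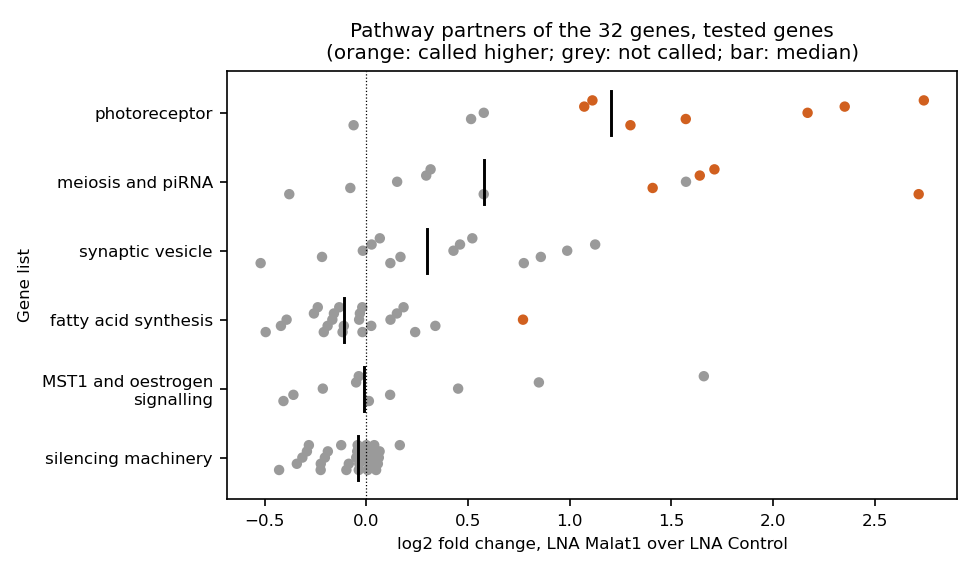
Log2 fold change of LNA Malat1 over LNA Control (horizontal axis) for the tested genes of 6 lists (vertical axis), each point a gene, orange where called higher and grey where not called, with a bar at the median. The photoreceptor list has 7 of 10 genes in orange and a median of 1.20, the meiosis list 4 of 11, and the silencing machinery 0 of 30.

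Secreted and extracellular proteins and the less known genes completed the set. Mst1 (chromosome 9), macrophage-stimulating protein, which the liver secretes, had 1, 2 and 3 in the controls and 13, 12 and 12 after silencing of Malat1, and its receptor Mst1r had 2, 5 and 7 and then 11, 6 and 9 and was not called. Otog (chromosome 7, 46240987 to 46311434), otogelin of the inner ear, had 1, 0 and 3 and then 16, 12 and 14. Its relative Otogl was called higher, with 103, 94 and 132 against 222, 191 and 217, a log2 fold change of 0.94. Lamc3 (chromosome 2), a laminin chain, had 3, 0 and 2 and then 18, 21 and 13. Its relative Lamc1 was not called (2564, 2264 and 2080 against 2096, 2007 and 2014). Sec14l3 (chromosome 11), a lipid-binding protein of the Sec14 family, had 1, 0 and 1 and then 12, 19 and 21. Greb1 (chromosome 12), known as an oestrogen-induced gene, had 3, 5 and 6 and then 18, 21 and 21, and its relative Greb1l 5, 3 and 2 and then 15, 11 and 9. Of 10 tested genes of MST1 and oestrogen signalling, limma and voom called 0, and 2 were higher and 3 lower at an unadjusted p below 0.05.

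AI661453 (chromosome 17), which has no settled function, had 1, 3 and 1 in the controls and 30, 29 and 33 after silencing of Malat1. Iqca1l (chromosome 5), named for an IQ motif and an ATPase domain, had 1, 0 and 1 and then 25, 18 and 14. Gm29797 (chromosome 2), a predicted gene, had 4, 3 and 6 and then 15, 27 and 20, and the end of Prpf6 lies 1.37 kb before it on the same strand. Prr15l (chromosome 11) had 5, 4 and 3 and then 14, 13 and 14. 2210016F16Rik (chromosome 13), the table's queuosine salvage protein, had 4, 4 and 5 and then 18, 15 and 13. These last 2 genes were outside the rule for named genes and are given so that each of the 32 is accounted for. Qtrt1, which inserts queuine into transfer RNA, had 5, 4 and 5 and then 13, 11 and 15 and missed the limit by 1.

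Apol10b (chromosome 15, 77583819 to 77596125, minus strand), of the apolipoprotein L family, had 1, 5 and 3 in the controls and 25, 17 and 22 after silencing of Malat1. The nearest gene of the table upstream on its strand, at 152 kb, is Apol8. Apol8 had 22, 16 and 24 and then 152, 137 and 119, or 2.67 as log2 fold change (adjusted p = 5.1e-07, limma). Apol9a (236, 267 and 245 against 253, 240 and 242) and Apol9b (130, 162 and 125 against 176, 177 and 150) of the same cluster were not called. The genes of this family are similar in sequence, and reads that aligned to several regions were left out by the authors, so the split among them is uncertain.

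Family members of the 32 genes were then set beside them. For 23 of the genes the table held 99 relatives by name, of which 82 were tested. Of these, 11 were called higher (13.4%) and 2 lower (2.44%), beside 8.0 and 2.92% of all genes tested. Over the 12320 protein-coding genes tested, 6.0% were called higher. The median log2 fold change of the relatives was 0.03. For 20 of the 23 genes, a relative had a higher level per kilobase of exon in LNA Control than the member reached in LNA Malat1. The exceptions were Asic1, Greb1 and Ppef2. The level per kilobase of the 32 genes in LNA Malat1 had a median of 5.54 (1.3 to 29.5), beside 53.2 for all tested protein-coding genes and 0.88 for the other near-silent genes. The members thus stayed below the typical expressed gene and mostly below a relative that the line already used.

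**Figure D4:**
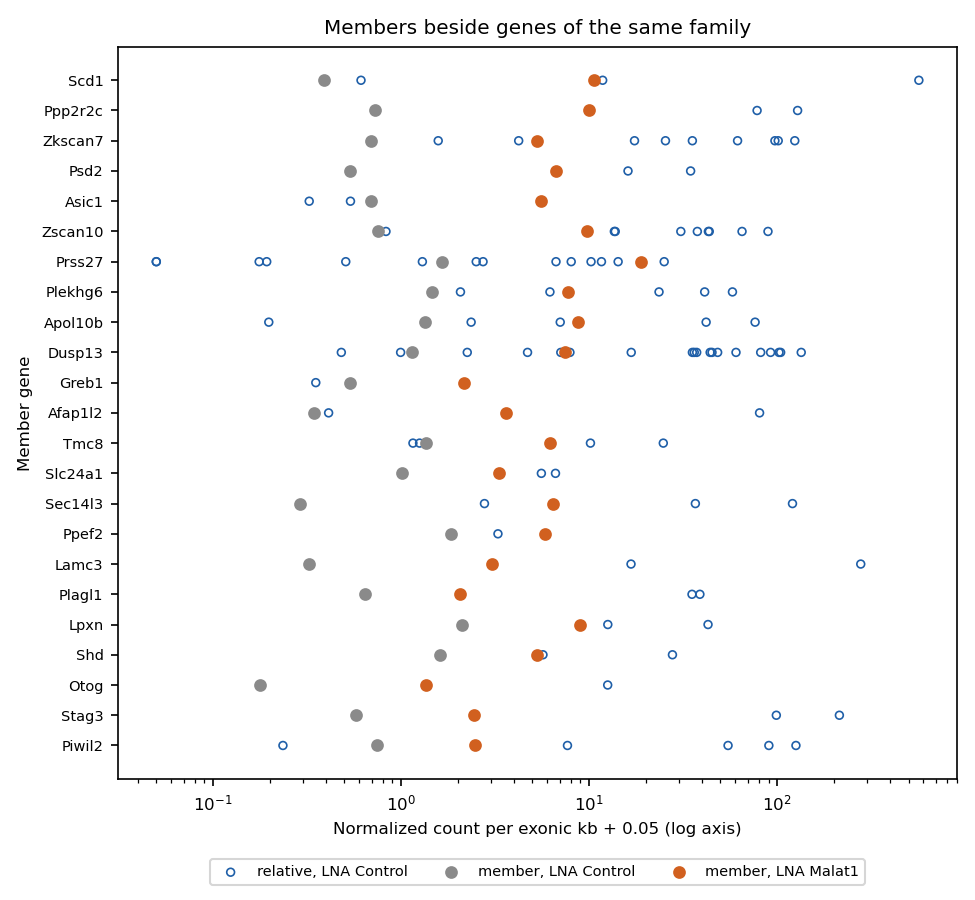
Level per kilobase of exon, as normalized count per kilobase plus 0.05 on a log axis, of the 23 members that have relatives in the table (rows) and of those relatives. Grey and orange points are the member in LNA Control and in LNA Malat1, and open blue circles are its relatives in LNA Control, and in 20 rows a blue circle lies to the right of the orange point.

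The counts for genes around the members are to be read against the 8.0% higher and 2.92% lower of all genes tested. The nearest other gene start in the table lay a median of 17.5 kb away. Of the 25 of these genes that were tested, limma called 0 higher and 1 lower, with a median log2 fold change of -0.04. At an unadjusted p below 0.05, 1 of them was higher and 6 were lower, and voom called 0 of them. The nearest gene of the table upstream on the same strand was called higher for 2 of 24 tested, namely Apol8 and the antisense RNA 6330415G19Rik upstream of Zscan10. For 3 members such a gene ended within 5 kb, namely Prpf6 before Gm29797, Naaa before Ppef2 (1.38 kb) and Yju2 before Shd (2.18 kb). The part of these genes in the level of the members was not tested. Zfp91, whose start is 0.067 kb from that of Lpxn, had a log2 fold change of -0.19. The gene that was lower is E2f6, whose start is 10.1 kb from that of Greb1. It encodes a repressor of the E2F family that is known to keep meiotic genes such as Stag3 silent in somatic cells. E2f6 had 492, 477 and 441 in the controls and 316, 310 and 304 after silencing of Malat1, or -0.60 as log2 fold change (adjusted p = 1.4e-05, limma). It lay at the fold minimum, between -0.64 and -0.54, and was called in 11 of 15 alternatives. Its part in the level of any member was not tested. The 32 genes lay on 14 chromosomes, with 5 on chromosome 5, 4 on chromosome 17 and 0 on X or Y. Zscan10 and Prss27 are the pair within 500 kb of each other. The members spanned a median of 29.2 kb (17.8 kb in the other near-silent genes and 23.4 kb in all protein-coding genes). They held 4.19 kb of exon (3.05 and 4.31 kb, in the same order). In 13 an annotated gene overlaps, and in 10 it shares exonic bases. The shared part of these 10 was between 0.15% (Prr15l) and 14.4% (Zkscan7) of the exonic bases. The library kit keeps the strand, but whether the counting used it is not given in the sources used here. Reads on several genes were excluded by the authors, so reads in the shared bases may have been lost. The part of such partners in the level of a member was not tested.

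Genes of the known silencing machinery were examined next. Of 30 genes for Polycomb, DNA methylation, H3 lysine 9 methylation and the REST complex, all 30 were tested, and limma and voom called 0. With no fold minimum 9 were lower and 0 higher, and at an unadjusted p below 0.05 there were 9 lower and 1 higher. The largest fall was that of Ezh1, with 264, 262 and 272 in the controls and 198, 191 and 203 after silencing of Malat1 (log2 fold change -0.43, limma adjusted p = 3.4e-04). Setdb1, an H3 lysine 9 methyltransferase, had 837, 841 and 775 and then 683, 624 and 628, and Ezh2 had 650, 658 and 694 and then 686, 679 and 680. The counts for the response lists stand beside 8.0% called higher and 2.92% lower over all genes tested. Over protein-coding genes alone, 6.0% were called higher. Of 15 interferon response genes 1 was called higher (Oas2), and limma called 0 of 12 p53 response genes, with 9 higher at an unadjusted p below 0.05 and 1 called by voom. With no fold minimum, 6 of the 12 p53 genes were higher and 0 lower, beside 2231 higher and 2195 lower of 15650 genes tested. All 12 had a log2 fold change above 0, with a median of 0.26. Their sum was between 5437 and 5628 in LNA Control and between 6512 and 6961 in LNA Malat1. Of the interferon genes, 4 were higher and 1 lower with no fold minimum. Of 8 genes of the integrated stress response limma and voom called 0, with 1 higher and 3 lower at an unadjusted p below 0.05.

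Markers of other cell types differed in level. Fibroblast markers summed to between 2928 and 3362 in LNA Control and between 2685 and 2757 in LNA Malat1, most of it Col1a1 and Postn. Smooth muscle markers, all 7 of which were in the table, summed to between 2111 and 2327 and then between 2207 and 2342, with Acta2 the highest. Endothelial markers summed to between 80 and 87 and then between 85 and 91, and skeletal muscle markers to between 129 and 138 and then between 172 and 186. The macrophage list had 2 of 8 genes in the table, Csf1r and Cd68, both called higher. Of 14 alternatives, 11 called Csf1r and 8 called Cd68. The macrophage markers summed to between 32 and 36 in LNA Control and between 54 and 81 in LNA Malat1. Neuron markers summed to between 44 and 57 and then between 71 and 80, with Snap25 between 0 and 3 and Tubb3 called higher. Hepatocyte markers summed to 28, 33 and 76 and then 173, 169 and 181, nearly all of it Apob, with Alb between 0 and 7. Germ cell markers summed to between 12 and 19 and then between 24 and 38, with Tex14 called higher. Of 5 skeletal muscle markers 2 were called higher (Tnnt3 and Ckm), of 7 smooth muscle markers 1 was, and of 11 cardiomyocyte markers 3 were, while limma and voom called 0 of 3 fibroblast and 0 of 3 endothelial markers, of which 2 were lower and 1 was higher, in that order, at an unadjusted p below 0.05. The cardiomyocyte markers summed to between 13636 and 17423 in LNA Control and between 20056 and 21392 in LNA Malat1. Ttn, the gene of titin, made up this difference, and without it the sums were 5112, 5031 and 5313 and then 5027, 4944 and 5072. The part of these markers in the levels of the 32 genes was not tested. In bulk RNA, more cells of a type and more RNA per cell cannot be told apart.

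Other low genes had higher sums too. Among 2159 other protein-coding genes with a mean of at most 6 over all 6 libraries, a choice that does not favour either group, the sum over genes was between 3254 and 4341 in LNA Control and between 6683 and 7132 in LNA Malat1, a ratio of 1.88. The 70 olfactory and vomeronasal receptor genes of the table, which cardiomyocytes are not known to need, summed to 380, 535 and 816 in the controls and 1155, 1026 and 1257 after silencing of Malat1, a ratio of 1.99. The 4039 noncoding genes with a mean of at most 6 gave a ratio of 1.46. In each of these 3 sets the groups did not overlap, and LNA Control replicate 3 was the highest control. Their part in the levels of the 32 genes was not tested. The ratio of 7.34 of the 32 genes is larger by their choice.

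The limits set how many genes are called near silent and then read. Among 2081 protein-coding genes with all LNA Control libraries at most 6, the 32 are 1.54%, and 1.68% met both limits with no name left out. Among 3718 such noncoding genes 0.70% met both limits. With the groups exchanged, 2 protein-coding genes met the same limits of 1700 that were near silent in LNA Malat1, which is 0.12%. Of the 32 genes, 7 had a highest control at 6 and 9 a lowest LNA Malat1 library at 12. Just outside, 16 genes had a highest control of 7, among them 9530053A07Rik (7, 4 and 7 against 29, 39 and 28) and Il2rb (7, 3 and 4 against 20, 20 and 24), and 13 had a lowest LNA Malat1 library of 11, among them Slc16a12 (0, 2 and 2 against 20, 11 and 19) and Adamts14 (1, 2 and 1 against 18, 11 and 12). With limits of 6 and 24 the rule kept 8 genes.

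**Figure D5:**
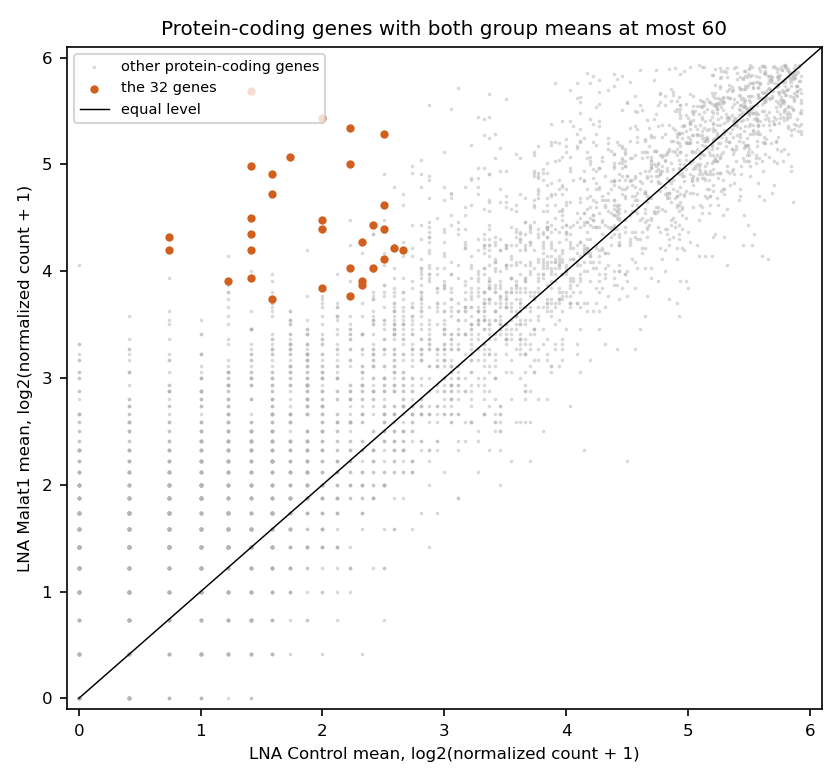
Mean of LNA Malat1 (vertical axis) against mean of LNA Control (horizontal axis), both as log2(normalized count + 1), for protein-coding genes with both means at most 60, the 32 genes in orange and a line at equal level. The members lie above the line at the left edge of the cloud, as the rule requires, and the other genes lie on both sides of it.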

How the data were processed

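Total RNA of 6 HL-1 libraries, 3 per group, was sequenced. By the submitters' processing notes and the methods of the study, reads were trimmed with Trimmomatic 0.39, aligned with STAR 2.7.7a to mm10 and counted per gene with featureCounts 1.6.5, reads on several genes or regions were excluded, and counts were normalized with DESeq2 1.30.0. What the authors deposited is a score, namely normalized counts rounded to whole numbers. The table's columns of the authors' own fold changes and p-values were not used.

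Members and lists were chosen with earlier results of these data known. Lists of relatives, pathway partners and motifs were written after the members were known. The library factor was recovered from the gaps that rounding leaves, which gave the reads per library. Genes with a mean of at least 5 (15650) entered limma 3.58.1 (R 4.3.3), fitted on log2(value + 1) with a trend, two-sided, with Benjamini-Hochberg adjustment over all genes tested. Calls needed both an adjusted p of 0.05 or less and a 1.5-fold change or more. The test was checked on simulated data. Confidence intervals (95%) were computed with scipy 1.17.1 in Python 3.11.15 and cover counting error only. Exonic lengths and overlaps are from GENCODE M21 and promoters from RefSeq, both on GRCm38. Distances to neighbours use the positions in the deposited table and only the genes it holds, so an annotated gene absent from it was skipped. The CpG ratio is the number of CpG times the window length over the product of C and G.

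Named genes were the 20 members with the highest LNA Malat1 mean, those at 0 in all controls, within 500 kb of another or nearest the limits, up to 3 per role group, Malat1 and called list genes. The relatives, neighbours, uncalled list genes and genes just outside the limits that are named were chosen after their values were seen, and some results are not reported here. Alternatives were a replicate block, pseudocounts of 0.1 and 5, other scalings, filters, fold minimums and limits, voom on recovered reads, each library left out, and LNA Malat1 replicates 1 and 3 as 1 sample. With 3 libraries a group, exact permutation p-values start at 0.1, so none was computed.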

Additional observations from a re-analysis of the deposited data

How the results depend on the processing

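The 32 members were all called higher under each alternative in which they could be tested, beside 8.0% of all genes in the main fit. The rule used the same contrast and nearly ensures these calls, so nothing is read from them, with the replicate block included. A filter on a mean of at least 50 left 0 of them. Their median log2 fold change of 2.60 became 3.02 with a pseudocount of 0.1, 1.62 with a pseudocount of 5, 2.11 with quantile normalization and 2.84 with voom, and ranged from 2.39 to 2.75 when each library was dropped in turn. The rule found 9 genes after quantile normalization, 14 with limits of 3 and 12, 8 with limits of 6 and 24, 63 with 8 and 12, 61 with 6 and 10 and 2 with the groups exchanged, and between 37 and 48 with a library left out. Median-of-ratios scaling, which divides libraries by factors from 0.991 to 1.01, left 23, since many members lie at a limit.

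Of all genes, 1252 were called higher and 457 lower (73.3% higher). The counts were 774 and 695 with quantile normalization (52.7% higher), 831 and 428 when LNA Malat1 replicates 1 and 3 formed 1 sample, 317 and 349 (47.6% higher) with a mean of at least 50, 2231 and 2195 (50.4% higher) with no fold minimum and 742 and 99 with a fold change of at least 2. With each library left out, between 769 (without LNA Malat1 replicate 1) and 1621 (without LNA Control replicate 3) were higher, with 796 without LNA Malat1 replicate 3. Genes called higher on the marker and response lists were 12, but 4 with a mean of at least 50 and between 7 (without LNA Malat1 replicate 1) and 12 with each library left out. Apart from the filters, limits and fold minimums, the cause of these shifts was not tested.

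Libraries with the same replicate number correlated in their deviations by 0.086, 0.182 and 0.083. The LNA Malat1 libraries differed by little more than the sampling noise, so low values cannot decide whether the numbers pair the libraries. With the replicate block, 1297 genes were higher and 442 lower, 32 members were called, their median was 2.60 and 12 list genes were higher. Of the promoters, 35.0% had a CpG ratio of at least 0.6 without members that overlap another gene of the table, and 40.0% (2 of 5) with limits of 6 and 24. With a normalized count of 6 or fewer per control library, the ratio of a single member is uncertain. Its interval covers counting error only, and neither the choice of the genes on these values nor the spread between libraries.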

Other observations

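Outside the 32 genes, 29 more genes met both limits of 6 and 12. Of these, 26 were not protein-coding, namely 17 lincRNAs, 5 antisense RNAs, 1 processed pseudogene, 1 processed transcript, 1 snRNA and 1 gene of unsettled status, and 3 were protein-coding genes with a name left out by the rule. The highest noncoding genes were Gm47416, with normalized counts of 5, 4 and 6 in the controls and 22, 29 and 30 after silencing of Malat1, and 4933433H22Rik, with 5, 4 and 3 and then 19, 27 and 29. The vomeronasal receptor gene Vmn1r218 was at 0 in all 3 LNA Control libraries and at 17, 12 and 18 in LNA Malat1, and Olfr878 had 2, 1 and 5 and then 16, 18 and 18.

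In the other direction, Car5b, a mitochondrial carbonic anhydrase, had 27, 17 and 21 in the controls and 3, 5 and 3 after silencing of Malat1, and Lrmda had 17, 17 and 16 and then 4, 4 and 4. These genes were chosen after their values were seen, and their difference is a description.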
